A study of Mus musculus with 17 samples.

Results

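The 10 genes Acta2, Actg2, Myh11, Tagln, Cnn1, Mylk, Oxtr, Lmod1, Smtn and Tpm2 encode contractile proteins and a contraction receptor of smooth muscle and of the myoepithelium, and their RNA was followed through 17 mouse mammary tumours. They were chosen by name for this function, with earlier results of these data known, and they are 10 of 12393 genes measured. Where a gene had several probe sets, the brightest on average was used. The tumours arose in FVB mice with a Myc T58A transgene. It encodes an altered Myc, a transcription factor that drives growth, and is expressed in mammary epithelium from the MMTV promoter. The labels describe all of them as low expressing. By histology label, 6 tumours were EMT (epithelial to mesenchymal transition), 1 was Papillary, 1 was Microacinar and 9 were Squamous. No normal gland and no tumour without the transgene is among these samples. Each tumour was measured once, and tumour numbers only tell apart tumours with one label.

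Smooth muscle cells of vessel walls and myoepithelial cells of the mammary gland share a contractile apparatus of smooth muscle actins, smooth muscle myosin and their regulators. In the gland, myoepithelial cells lie beneath the luminal cells and contract on oxytocin to eject milk. Serum response factor, with coactivators of the myocardin family, drives many of these genes through a DNA element called the CArG box. In tumours, myofibroblasts also make alpha smooth muscle actin and transgelin. In RNA from whole tumours, fewer cells of a type and less RNA per cell cannot be told apart.

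Values are log2 values as deposited, so a log2 fold change of 1 is a 2-fold ratio. Array medians lay between 7.23 and 7.40. EMT 5, EMT 6 and Squamous 9 had array titles in which TM follows a number, and these 3 arrays had wider distributions (SD of 2.46 to 2.51 over probe sets) than the 14 numbered ones (2.25 to 2.29). Title format was therefore a term in the comparison of EMT with Squamous tumours, which used limma with Benjamini-Hochberg adjustment over all genes and a threshold of 0.05. Unless another setting is named, fold changes and ratios come from this fit. They can therefore differ, even in sign, from the difference of the printed group means. The 3′ minus 5′ difference of the beta-actin control, which is higher where RNA is less intact, was 0.592 ± 0.134 in EMT and 0.780 ± 0.110 in Squamous tumours (SD, n = 6 and n = 9, exact two-sided permutation p = 0.0126). For the Gapdh control it was 0.102 ± 0.161 in EMT and 0.187 ± 0.114 in Squamous tumours (exact two-sided permutation p = 0.247). The part of RNA integrity in the differences below was not tested. Of the cell type markers, the mean of 12 luminal epithelium genes ran from 6.39 to 11.97 in EMT and from 10.23 to 11.57 in Squamous tumours, and the lowest 3 means were those of EMT 4, EMT 5 and EMT 6.

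Between EMT and Squamous tumours the contractile genes did not move as a block. Smoothelin (Smtn) and beta-tropomyosin (Tpm2) had higher means in EMT tumours, with log2 fold changes of 0.96 and 0.81, while smooth muscle myosin heavy chain (Myh11) and leiomodin (Lmod1) had lower ones, with −1.09 and −0.43. The smooth muscle actins Acta2 and Actg2 and transgelin (Tagln) had fold changes of −0.19 to −0.14 and varied widely inside both histologies. None of the 10 genes passed the adjusted threshold, where 0 of 12393 genes did (0%) and the smallest adjusted p of any gene was 0.0982. At an unadjusted p under 0.05 by limma, 1 of 10 was higher in EMT (Smtn), beside 8.08% of all genes, and 2 of 10 were lower (Lmod1 and Myh11), beside 6.27% of all genes. The histologies overlapped for all 10 genes, as EMT tumours lay above every Squamous tumour for 0.153% of genes and below every one for 0.0968%. The fold change was below 0 for 8 of the 10 genes with a median of −0.19, against 48.2% of all genes with a median of 0.0064.

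**Figure D1:**
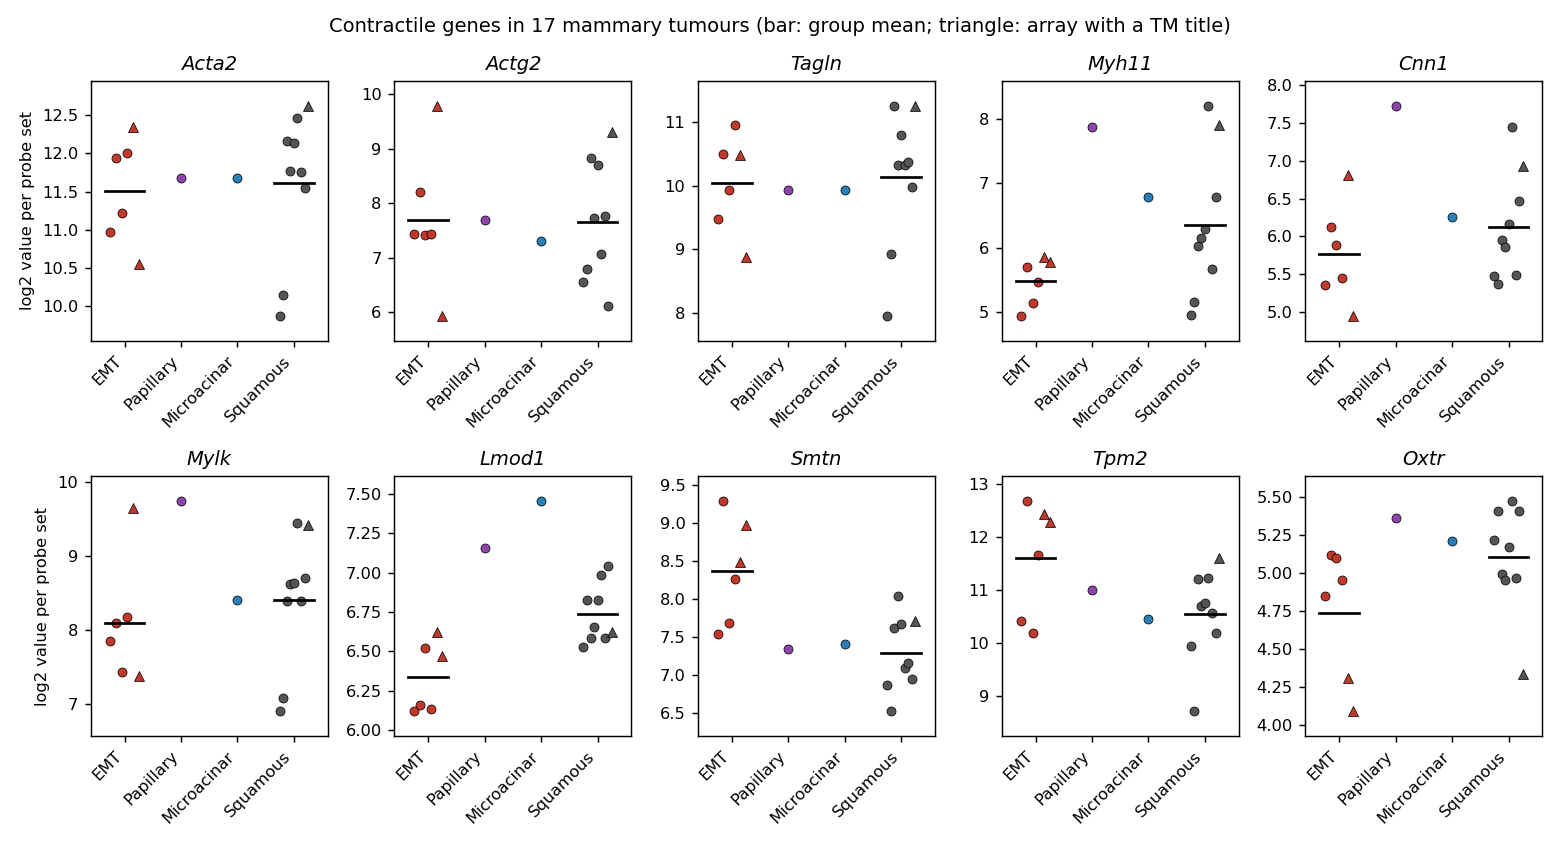
Log2 values of the 10 contractile genes (y axis, one panel per gene, each with its own scale) in EMT, Papillary, Microacinar and Squamous tumours (x axis), with 1 point per tumour, triangles for TM arrays and a bar at the mean of EMT and of Squamous tumours. The 6 EMT tumours lie high for Smtn (7.54 to 9.28, against 6.53 to 8.04 in Squamous tumours) and low for Lmod1 (6.12 to 6.62, against 6.53 to 7.04 in Squamous tumours), and the other genes overlap more.

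Acta2 encodes alpha smooth muscle actin, the actin of vascular smooth muscle, of myoepithelium and of myofibroblasts. Its promoter is printed first below, from RefSeq on GRCm38.p6, together with those of Cnn1, Smtn and Tpm2. These genes belong to pairs that varied closely together across the tumours. Mylk belongs to such pairs too, but its promoter is not printed. Each is the 250 bases before the start site, read 5′ to 3′ on the gene's own strand, and the capitals mark CArG boxes with 1 core letter changed. The positions are chr19:34255374-34255623 on the minus strand for Acta2, chr9:22099003-22099252 on the plus strand for Cnn1, chr11:3539293-3539542 on the minus strand for Smtn and chr4:43523555-43523804 on the minus strand for Tpm2.
Acta2: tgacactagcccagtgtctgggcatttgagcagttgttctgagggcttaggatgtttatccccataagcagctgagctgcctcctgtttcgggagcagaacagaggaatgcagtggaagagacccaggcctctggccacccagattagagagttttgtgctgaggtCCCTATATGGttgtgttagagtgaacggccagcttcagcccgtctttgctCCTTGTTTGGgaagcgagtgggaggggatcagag
Cnn1: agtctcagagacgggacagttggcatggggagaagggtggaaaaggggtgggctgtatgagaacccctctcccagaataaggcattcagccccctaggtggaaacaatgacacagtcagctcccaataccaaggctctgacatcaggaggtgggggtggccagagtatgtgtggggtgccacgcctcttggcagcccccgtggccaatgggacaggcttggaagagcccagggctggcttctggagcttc
Smtn: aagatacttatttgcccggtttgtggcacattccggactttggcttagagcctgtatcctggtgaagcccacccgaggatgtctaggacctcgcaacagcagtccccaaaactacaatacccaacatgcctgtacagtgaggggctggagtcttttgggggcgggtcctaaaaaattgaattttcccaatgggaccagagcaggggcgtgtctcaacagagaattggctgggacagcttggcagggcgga
Tpm2: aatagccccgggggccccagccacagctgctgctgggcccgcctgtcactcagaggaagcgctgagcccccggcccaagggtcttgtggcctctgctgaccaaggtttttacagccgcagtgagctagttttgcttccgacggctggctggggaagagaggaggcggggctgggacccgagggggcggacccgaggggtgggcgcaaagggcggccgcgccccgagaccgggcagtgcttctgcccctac
The CArG box was searched as 10 letters, CC, then 6 core letters that are each A or T, then GG, a pattern that reads alike on both strands. RefSeq promoters were given for 7 of the 10 genes, all but Actg2, Myh11 and Tagln. None of the 7 held an exact box, which 1.47% of 32851 promoters of the same length hold. With 1 core letter allowed to change, the share over all promoters was 8.59%, and among the 7 genes only Acta2 had matches, CCCTATATGG at 84 to 75 bases and CCTTGTTTGG at 34 to 25 bases before the start site.

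Acta2 was abundant and uneven in both histologies. It read 10.97, 11.94, 11.22, 12.01, 12.35 and 10.55 in EMT 1 to EMT 6, which overlapped the Squamous tumours on both sides. Squamous tumours had a lowest Acta2 value of 9.87, a median of 11.77 and a highest of 12.62. Acta2 averaged 11.51 ± 0.70 in EMT and 11.61 ± 0.97 in Squamous tumours (SD, n = 6 and n = 9), and the limma fold change was −0.19 on the log2 scale (SE 0.46, adjusted p = 0.879). The lowest values of all 17 tumours were those of Squamous 1 (9.87) and Squamous 2 (10.15). The probe set is of the type whose probes related transcripts can share, and the actins are near copies of one another, so part of its signal may belong to other actins.

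Tagln encodes transgelin, an actin-binding protein of smooth muscle and myofibroblasts. The EMT tumours gave 9.48, 10.50, 9.93, 10.95, 10.48 and 8.88 in order of their numbers, and the Squamous tumours had a lowest Tagln value of 7.96, a median of 10.33 and a highest of 11.25. Again Squamous 1 (7.96) was the lowest tumour, and EMT 6 and Squamous 2 (8.93) followed. Tagln averaged 10.04 ± 0.76 in EMT and 10.13 ± 1.08 in Squamous tumours, a fold change of −0.14 (SE 0.52, adjusted p = 0.926 by limma).

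Actg2, the gamma actin of enteric smooth muscle, ran from 5.93 in EMT 6 to 9.78 in EMT 5. The other EMT tumours, EMT 1 to EMT 4, had Actg2 at 7.42, 8.20, 7.41 and 7.44. Squamous tumours ran from 6.11 through a median of 7.72 to 9.31. EMT tumours thus held both the lowest and the highest value of the 17, both on TM arrays. Actg2 averaged 7.70 ± 1.26 in EMT and 7.65 ± 1.12 in Squamous tumours. The fit with title format gave a fold change of −0.15 (SE 0.60, adjusted p = 0.931 by limma). Without the title format term its sign turned, to 0.049. For Acta2, Actg2 and Tagln the sign depended on the array set: among numbered arrays alone the fold changes were 0.05, 0.18 and 0.22 in that order, and on the 3 TM arrays, with 1 Squamous tumour and no test, they were −1.17, −1.46 and −1.57.

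Myh11 encodes the myosin heavy chain that marks differentiated smooth muscle. It was low in all EMT tumours, at 4.95, 5.70, 5.15, 5.47, 5.86 and 5.78 in EMT 1 to EMT 6. Squamous tumours had a lowest Myh11 value of 4.96, a median of 6.15 and a highest of 8.20, and 6 of the 9 lay above the highest EMT tumour. The tumours with the most Myh11 were Squamous 6 (8.20), Squamous 9 (7.91) and the Papillary tumour (7.88). Myh11 averaged 5.49 ± 0.37 in EMT and 6.35 ± 1.12 in Squamous tumours. The fit with title format gave a ratio of 0.470, a fold change of −1.09 on the log2 scale (SE 0.43, unadjusted p = 0.0248, adjusted p = 0.291 by limma). Without the title format term the fold change was −0.87. The fold change was −0.84 among numbered arrays and −2.09 on the TM arrays. With the mean of its 2 probe sets it was −0.58, and the other probe set, below the lower quartile of the array in all 17 tumours, gave −0.08. In 4 tumours Myh11 lay below the lower quartile of its array, so those values give little order.

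Cnn1, basic calponin, binds actin and slows the myosin ATPase in smooth muscle. Its values in EMT 1 to EMT 6 were 5.36, 6.13, 5.89, 5.45, 6.82 and 4.95, and its Squamous values had a lowest of 5.37, a median of 5.96 and a highest of 7.45. The Papillary tumour exceeded them all with 7.72. Cnn1 averaged 5.77 ± 0.66 in EMT and 6.13 ± 0.71 in Squamous tumours, a fold change of −0.47 (SE 0.36, adjusted p = 0.561 by limma). Without EMT 6 it was −0.29, and without Squamous 6 −0.31.

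Mylk, the myosin light chain kinase that switches on smooth muscle myosin after calcium entry, followed a similar order of tumours. EMT 1 to EMT 6 had Mylk at 7.86, 8.09, 7.44, 8.17, 9.65 and 7.38, with EMT 5 well above the other 5. Squamous tumours had a lowest Mylk value of 6.91, a median of 8.63 and a highest of 9.45, and the Papillary tumour had 9.74. Mylk averaged 8.10 ± 0.83 in EMT and 8.40 ± 0.89 in Squamous tumours, a fold change of −0.49 (SE 0.43, adjusted p = 0.622 by limma) that was −0.29 without EMT 6. A further Mylk probe set gave a fold change of −0.57 and another −0.04.

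Lmod1 encodes leiomodin, which nucleates actin filaments in smooth muscle. EMT 1 to EMT 6 had 6.12, 6.16, 6.52, 6.13, 6.62 and 6.47, and 5 of these 6 lay below the lowest Squamous tumour. In Squamous tumours Lmod1 ran from 6.53 through a median of 6.66 to 7.04. The gene spread less than any other of the 10 within both histologies. Lmod1 averaged 6.34 ± 0.23 in EMT and 6.74 ± 0.19 in Squamous tumours, a fold change of −0.43 (SE 0.11, unadjusted p = 0.00171, adjusted p = 0.169 by limma). The difference lay in the numbered arrays, at −0.52, and was −0.07 on the TM arrays, with 1 Squamous tumour and no test. There Lmod1 was exactly tied with 19 other probe sets in EMT 5 and with 6 in Squamous 9. Both tumours had 6.62, so the TM value may give little order.

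Smtn encodes smoothelin, an actin-associated protein of contractile smooth muscle. EMT 1 to EMT 6 had 7.54, 9.28, 7.69, 8.26, 8.49 and 8.97, and 4 of the 6 exceeded every Squamous tumour. Squamous tumours had a lowest Smtn value of 6.53, a median of 7.16 and a highest of 8.04, with 5 of 9 below the lowest EMT tumour. Smtn averaged 8.37 ± 0.69 in EMT and 7.30 ± 0.49 in Squamous tumours. The fit with title format gave a ratio of 1.95, a fold change of 0.96 (SE 0.29, unadjusted p = 0.00493, adjusted p = 0.211 by limma). Without the title format term the fold change was 1.08. Numbered arrays alone gave 0.95 and TM arrays alone 1.01. The Papillary tumour (7.35) and the Microacinar tumour (7.41) lay inside the Squamous range.

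Tpm2 encodes beta-tropomyosin, which lies along actin filaments in smooth muscle and in slow skeletal muscle. Its values in EMT 1 to EMT 6 were 10.40, 12.68, 10.18, 11.67, 12.45 and 12.29, so the same 4 tumours as for Smtn (EMT 2, EMT 4, EMT 5 and EMT 6) exceeded every Squamous tumour. Squamous tumours had a lowest Tpm2 value of 8.71, a median of 10.70 and a highest of 11.61. Tpm2 averaged 11.61 ± 1.08 in EMT and 10.54 ± 0.86 in Squamous tumours. The fit with title format gave a ratio of 1.75, a fold change of 0.81 (SE 0.44, adjusted p = 0.416 by limma). Without the title format term the fold change was 1.07. Without EMT 2 the fold change was 0.44, and with array weights, which gave EMT 4 and EMT 2 the lowest weights (0.40 and 0.42), it was 0.24.

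The 4 probe sets of Tpm2 did not order the tumours alike. The fold change of EMT over Squamous tumours was 0.81 for the one used, and 0.95, 1.28 and 0.80 for the other 3. The pair with the higher signal was highest in EMT 2, at 12.68 and 11.97. The other pair was high in EMT 4, at 10.65 and 8.57, and in the Microacinar tumour, at 9.75 and 8.60. These 2 tumours also had the highest means of 18 skeletal muscle genes, 10.47 in EMT 4 and 9.80 in the Microacinar tumour, against 5.19 to 9.20 in the other 15. The part of skeletal muscle RNA in the Tpm2 values was not tested.

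**Figure D2:**
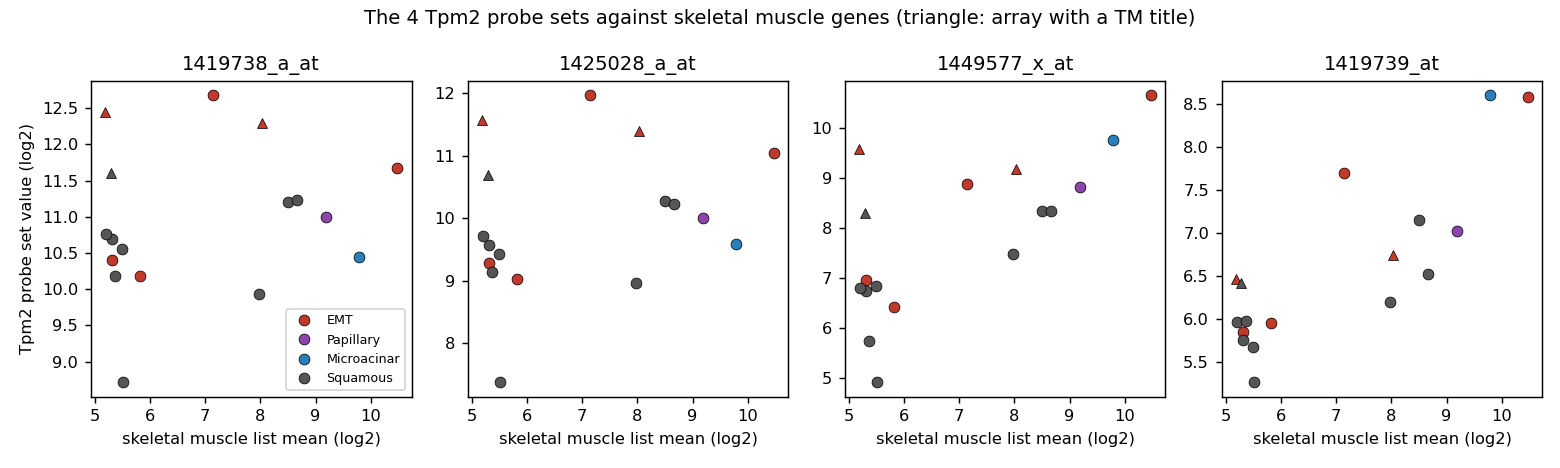
Log2 values of the 4 Tpm2 probe sets (y axis, one panel each with its own scale, the one used at the left) against the mean log2 value of 18 skeletal muscle genes (x axis), with 1 point per tumour coloured by histology and triangles for TM arrays. The left 2 panels peak in EMT 2, whose skeletal muscle mean is 7.14, and the right 2 panels have EMT 4 and the Microacinar tumour, at 10.47 and 9.80 on the x axis, as their 2 highest points.

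Oxtr encodes the oxytocin receptor, through which myoepithelium and uterine muscle contract. It gave 4.85, 5.12, 5.09, 4.95, 4.31 and 4.09 in EMT 1 to EMT 6, and from 4.33 through a median of 5.17 to 5.47 in Squamous tumours. In 14 of the 17 tumours Oxtr lay below the lower quartile of its array, and in EMT 6 it had exactly the same value as 90 other probe sets. Exact ties in EMT 6 also held for Cnn1 (65 other probe sets), Myh11 (41), Actg2 (34) and Tagln (7), so the EMT 6 values of these genes, among them the lowest Actg2 and Cnn1 of the 17 tumours, may give little order. In EMT 5, Cnn1 was tied with 20 other probe sets and Lmod1 with 19. The 3 lowest Oxtr values were those of the 3 TM arrays. Oxtr averaged 4.73 ± 0.43 in EMT and 5.10 ± 0.35 in Squamous tumours, a fold change of −0.18 (SE 0.10, adjusted p = 0.420 by limma). At this low signal no difference in the receptor's RNA was detected, and whether one could be was not tested.

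**Figure D3:**
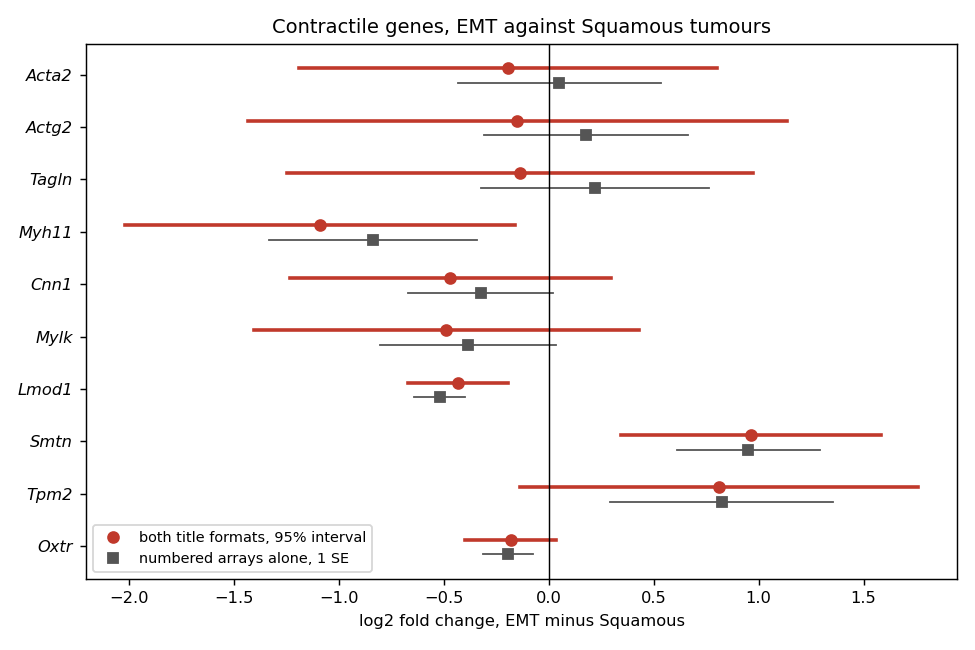
Log2 fold change of EMT over Squamous tumours (x axis) for the 10 contractile genes (y axis), from the fit with title format, as circles with bars for the 95% interval, and from numbered arrays alone, as squares with bars for 1 SE. Smtn and Tpm2 lie above 0 and Myh11 and Lmod1 below 0 in both fits, while Acta2, Actg2 and Tagln lie on opposite sides of 0.

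The tumours varied widely within each histology. All 10 had an SD over the 17 tumours above the median of all genes, and the median SD was 0.83 for the 10 genes and 0.32 for all genes. When each gene was centred and divided by its SD, the tumours with the highest mean over the 10 genes were Squamous 6 (0.74), the Papillary tumour (0.72), Squamous 9 (0.71) and EMT 5 (0.63). The lowest were Squamous 1 (−1.12) and Squamous 2 (−0.96), followed by EMT 1 and EMT 6 (both −0.70). EMT 1 was below the median of the 17 tumours for all 10 genes.

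**Figure D4:**
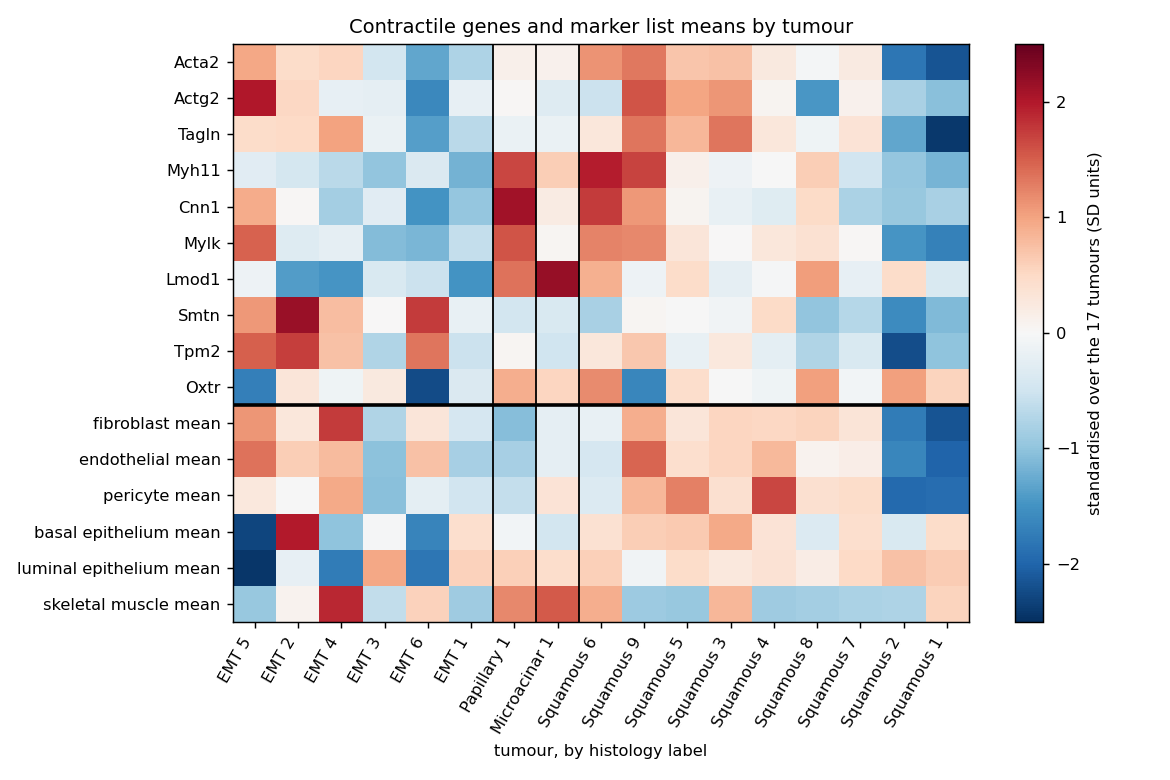
Standardised log2 values (centred on each gene's mean over 17 tumours and divided by its SD, colour scale) of the 10 contractile genes and, below the line, of 6 marker means (rows) in the 17 tumours (columns, by histology and then by the mean over the 10 genes). Squamous 1 and Squamous 2 are low for most genes, and Smtn and Tpm2 are highest in EMT 2 (9.28 and 12.68), where Myh11 has 5.70.

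Many of the genes varied together across tumours. Of 45 pairs, 14 had a correlation past the threshold by a two-sided permutation test with Benjamini-Hochberg adjustment over the 45, 12 of them positive. The permutations ran across histologies and title formats. The same share for pairs of other genes was not computed, so the count does not set these genes apart. Acta2 and Tagln were the closest pair, with r = 0.93 (rho = 0.90, permutation adjusted p = 0.000225, n = 17 tumours) and r = 0.88 without the 2 tumours farthest from the Acta2 median. Myh11 and Cnn1 had r = 0.85 (rho = 0.82, permutation adjusted p = 0.00036), and r = 0.79 without the 2 tumours farthest from the Myh11 median. Cnn1 and Mylk had r = 0.86 (rho = 0.87, permutation adjusted p = 0.000337), and r = 0.81 without the 2 farthest. Acta2 and Mylk had r = 0.84 (rho = 0.71, permutation adjusted p = 0.000337), and r = 0.73 without the 2 farthest. Weaker links past the threshold joined Mylk with Myh11 (r = 0.80) and Tagln (r = 0.66), and Actg2 with Tagln (r = 0.72) and Acta2 (r = 0.70). Others joined Acta2 with Cnn1 (r = 0.63) and Myh11 (r = 0.61), and Myh11 with Lmod1 (r = 0.62). Without the 2 farthest tumours, r of these weaker links ran from 0.45 (Mylk with Tagln) to 0.75 (Mylk with Myh11). Smtn and Tpm2 had r = 0.86 (rho = 0.76, permutation adjusted p = 0.000225), and r = 0.79 without the 2 farthest. Among the 9 Squamous tumours alone r was 0.94 for Acta2 with Tagln, 0.98 for Myh11 with Cnn1, 0.84 for Cnn1 with Mylk, 0.95 for Acta2 with Mylk and 0.74 for Smtn with Tpm2. Myh11 and Smtn had r = −0.14 over the 17 tumours (rho = −0.02, permutation adjusted p = 0.719) and 0.33 among the Squamous tumours. Tpm2 had r = 0.23 with both Myh11 and Cnn1 over the 17 tumours, and 0.71 and 0.67 among the Squamous tumours. The 2 negative pairs past the threshold were Oxtr with Smtn (r = −0.62, rho = −0.75, permutation adjusted p = 0.0302) and Oxtr with Tpm2 (r = −0.61, rho = −0.50, permutation adjusted p = 0.0308). Without the 2 tumours farthest from the Oxtr median these r were −0.39 and −0.38, and on the 14 numbered arrays −0.50 and −0.28. By rho, Oxtr with Tpm2 did not pass (permutation adjusted p = 0.099), nor did Mylk with Tagln (rho = 0.51, permutation adjusted p = 0.0916).

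Acta2 and Tagln were set beside markers of other cells that a tumour can hold. Squamous 1 and Squamous 2, low for most contractile genes, also had the lowest means of 11 fibroblast genes (8.44 and 8.87, against a median of 10.97 over the tumours), of 12 endothelial genes (6.80 and 7.01, median 7.97) and of 14 pericyte genes (7.52 and 7.51, median 8.03). Of 50 correlations between the 10 genes and 5 marker means, 10 passed the threshold by a permutation test with Benjamini-Hochberg adjustment over the 50. Tagln correlated with the fibroblast mean at r = 0.78 (rho = 0.75, permutation p = 0.0004, adjusted p = 0.00667), with the pericyte mean at r = 0.77 (rho = 0.71, permutation p = 0.0003, adjusted p = 0.00667) and with the endothelial mean at r = 0.74 (rho = 0.68, permutation p = 0.0008, adjusted p = 0.00721). Acta2 had r of 0.74, 0.74 and 0.73 with the same 3 means (permutation adjusted p = 0.00721 for each). Tpm2 passed with the endothelial (r = 0.76) and fibroblast means (r = 0.67), Smtn with the endothelial mean (r = 0.66), and Oxtr with the endothelial mean in the negative direction (r = −0.64). By rho, Acta2 with the pericyte mean did not pass (rho = 0.60, permutation adjusted p = 0.0671). Nor did Tpm2 with the fibroblast mean (rho = 0.58, permutation adjusted p = 0.0753). No gene passed with the mean of 12 basal epithelium genes, which include the basal keratins Krt5 and Krt14, or of skeletal muscle genes. Without the 2 tumours farthest from each list's median, which were Squamous 1 and Squamous 2 for the fibroblast, endothelial and pericyte means, 0 of 50 passed among the other 15 tumours. The r of Tagln was then 0.54 with the fibroblast, 0.55 with the pericyte and 0.49 with the endothelial mean, and that of Acta2 was 0.42, 0.44 and 0.45. Tpm2 had 0.65 with the endothelial and 0.46 with the fibroblast mean, Smtn 0.52 with the endothelial mean and Oxtr −0.64 with it. On the 14 numbered arrays Oxtr with the endothelial mean had r = −0.42 (permutation adjusted p = 0.295), and its 3 lowest values over all tumours were those of the TM arrays. Among numbered arrays 7 of 50 passed and among the 9 Squamous tumours 4, with r = 0.92 for Tagln with both the fibroblast and the endothelial mean (exact permutation adjusted p = 0.0344 and 0.0238).

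EMT and Squamous tumours differed in these marker means by less than the SD among EMT tumours. Basal epithelium genes averaged 8.56 ± 1.88 in EMT and 9.50 ± 0.53 in Squamous tumours, with the 3 lowest means in EMT 5 (6.29), EMT 6 (7.07) and EMT 4 (7.87). Fibroblast genes averaged 11.04 ± 0.95 in EMT and 10.55 ± 1.12 in Squamous tumours. Pericyte genes averaged 7.94 ± 0.16 in EMT and 7.99 ± 0.30 in Squamous tumours. EMT 5 had the highest Actg2 and the highest Mylk among EMT tumours together with the lowest basal epithelium mean of the 17. Gene by gene, none of the marker lists had a member past the adjusted threshold. Among basal epithelium genes 4 had a fold change above 0 and 8 below, from 0.54 for the integrin Itgb4 to −1.90 for the keratin Krt17, with Krt5 at −1.75 and Krt14 at −1.57. Among luminal genes 1 lay above 0 (Krt8, at 0.05) and 11 below, down to −2.95 for Elf5, a transcription factor of secretory cells. Pericyte genes divided 9 above to 5 below (Higd1b at 0.61, Anpep at −1.23), endothelial genes 9 to 3 (Flt1 at 0.29, Vwf at −0.97) and fibroblast genes 9 to 2 (Pdgfra at 0.77, Dpt at −0.56). All 18 skeletal muscle genes had a fold change above 0, from 0.33 for Myoz1 to 2.02 for the fast myosin Myh1 (SE 1.67, adjusted p = 0.597 by limma). The mean of the 18 genes was 6.99 ± 2.03 in EMT and 6.37 ± 1.52 in Squamous tumours. It ran from 5.19 to 10.47 in EMT, highest in EMT 4, and from 5.20 to 8.66 in Squamous tumours. The part of cell composition in the differences of the 10 genes was not tested.

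The Papillary tumour and the Microacinar tumour were each single, so their values carry no replicate check. The Papillary tumour had the highest Cnn1 (7.72) and the highest Mylk (9.74) of the 17 tumours. Its Lmod1 (7.16) ranked 2 and its Myh11 (7.88) ranked 3 of the 17. These 4 exceeded the Squamous mean by 1.59, 1.34, 0.42 and 1.53 on the log2 scale in that order, whereas Acta2 differed by 0.07 and Tagln by −0.20. Of the 10 genes 3 (Cnn1, Mylk and Lmod1) lay above all Squamous tumours and 0 below, where 8.26% of all genes lay above and 8.26% below. With the mean of each gene's probe sets the count was 2, without Mylk. The Microacinar tumour had the highest Lmod1 of the 17 (7.45), and that was 1 of 10 genes above all Squamous tumours with 0 below, where 11.1% of all genes lay above and 10% below. Its Myh11 (6.79) was 0.44 above the Squamous mean. Both tumours also had high skeletal muscle means (9.20 in the Papillary and 9.80 in the Microacinar tumour, against 5.20 to 8.66 in Squamous tumours), and the part of that RNA in these values was not tested.

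Most other measured genes of the contractile apparatus had fold changes above 0. Of 31 listed, 24 were measured, 18 with a fold change above 0 and 6 below, with a median of 0.45, and 0 passed the adjusted threshold. At an unadjusted p under 0.05 by limma 10 of the 24 were higher in EMT, where 8.08% of all genes were, and 0 were lower, where 6.27% were. The widely expressed calponin Cnn2 averaged 11.62 ± 0.61 in EMT and 10.69 ± 0.40 in Squamous tumours, a fold change of 0.83 (SE 0.24, adjusted p = 0.208 by limma), and 4 of 6 EMT tumours exceeded every Squamous one. Fhl2, a LIM domain protein that acts as a coactivator, had a fold change of 0.79 (adjusted p = 0.348). The caldesmon gene Cald1 and the tropomyosin gene Tpm1, which are made in most cells as well as in smooth muscle, had fold changes of 0.63 and 0.66 (adjusted p = 0.267 and 0.301). At the low end stood Myl9, the regulatory light chain of smooth muscle myosin, at −0.48 (SE 0.55, adjusted p = 0.723), and the non-muscle alpha-actinin Actn4 at −0.37 (adjusted p = 0.379).

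Receptors, G proteins, kinases and phosphatases that signal to contraction had fold changes nearer to 0. Of 28 listed, 23 were measured, 17 above and 6 below 0 with a median of 0.07, and 0 passed. The highest were Rgs2, which turns off Gq signalling, at 0.47 (adjusted p = 0.576) and Gna11, a Gq family G protein, at 0.45 (adjusted p = 0.223). The lowest was the prostaglandin receptor Ptger3 at −1.11 (SE 0.55, adjusted p = 0.376), which ran from 4.36 to 8.73 in EMT and from 6.40 to 8.55 in Squamous tumours. Ppp1cb, a catalytic subunit of the myosin phosphatase, had −0.22.

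Of 14 transcriptional regulators of smooth muscle genes, 10 had a fold change above 0 and 4 below, with a median of 0.06 and 0 past the threshold. Mrtfa, the coactivator that carries actin signals to serum response factor, had 8.33, 8.79, 8.45, 9.27, 8.87 and 8.93 in EMT 1 to EMT 6, with 5 of the 6 above the highest Squamous tumour. Squamous tumours had Mrtfa from 7.90 to 8.38. Mrtfa averaged 8.77 ± 0.34 in EMT and 8.16 ± 0.18 in Squamous tumours, a fold change of 0.58 (SE 0.14, unadjusted p = 0.000859, adjusted p = 0.153 by limma). Serum response factor itself (Srf) averaged 8.52 ± 0.24 in EMT and 8.31 ± 0.24 in Squamous tumours, a fold change of 0.26 (SE 0.13, adjusted p = 0.370). Myocd, the myocardin gene, lay below the lower quartile of the array in 12 of 17 tumours. It reached 8.26 in EMT 5 and 6.86 in Squamous 6, and was at most 5.72 in the other tumours. Those 2 tumours were also among the highest 4 for the standardised mean of the 10 genes. The others of these 4 did not share high Myocd, with 4.63 in the Papillary tumour and 5.53 in Squamous 9. Mef2c had a fold change of 0.90 (SE 0.54, adjusted p = 0.457), and Klf15, a Krüppel-like transcription factor, one of −0.72 (SE 0.35, adjusted p = 0.367). Hey2, a Notch target of vascular smooth muscle, had −0.45, but lay below the lower quartile of the array in 16 of 17 tumours.

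**Figure D5:**
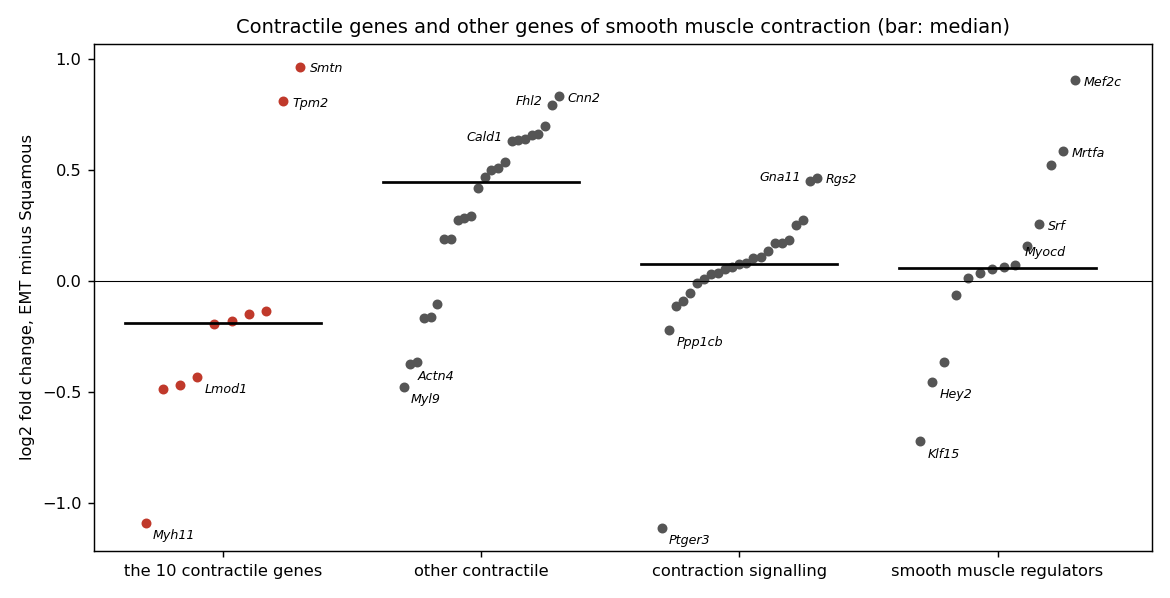
Log2 fold change of EMT over Squamous tumours (y axis) for the 10 contractile genes and for 3 lists of other contraction genes (x axis), with 1 point per gene and a bar at the median. The medians are −0.19 for the 10 genes, 0.45 for the other contractile genes, 0.07 for contraction signalling and 0.06 for smooth muscle regulators.

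Outside the 10 genes, the gene whose values most resembled their mean standardised value over the 17 tumours was Myl9 (r = 0.85, rho = 0.85), as a description. Its lowest values were those of EMT 6 (6.24), Squamous 1 (6.80) and Squamous 2 (7.18), and its highest was that of Squamous 9 (9.90). Next came Prelp, which encodes a matrix proteoglycan, at r = 0.73, and the class II antigen presentation gene H2-Aa, at r = 0.71. The genes most like Oxtr reached r of 0.96 (C86187 and Tepsin) and 0.95 (Lin28a), where the 3 TM arrays stood apart from the 14 numbered arrays for Oxtr.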

How the data were processed

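RNA of 17 tumours was measured on 1 Affymetrix array each, from total RNA and biotin-labelled cRNA, per the labels' protocols. The deposited log2 values cover 22690 probe sets with none missing. The authors' normalization is not given in the sources used here, and their range is that of log2 data. They were used without further normalization. The number of arrays limits the precision.

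Of the probe sets, 64 were controls, 20380 named a single gene in the probe table given here (691 named several and 1555 none), and 20351 were matched to the RefSeq gene table. Each of 12393 genes was read from its probe set with the highest mean, and 4956 had several. The limma test (limma 3.58.1, R 4.3.3) set EMT (n = 6) against Squamous (n = 9) tumours in an additive model of histology and title format, with Benjamini-Hochberg adjustment over all genes. Papillary and Microacinar tumours did not enter it. Whether each tumour is from its own animal is not labelled: Squamous 7 and Squamous 8 share the title number 1407, while Squamous 5 and the Microacinar tumour share 1308. P-values thus reflect the spread among these tumour samples alone, some of which may share an animal. As each tumour was measured once, the technical part of that spread cannot be told apart. Correlations used 100000 permutations, or all pairings for the 9 Squamous tumours.

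The genes and lists were chosen with earlier results of these data known. The rule named all 10 genes, the 2 highest and 2 lowest of each contraction list by fold change, the highest and lowest of each marker list, and the genes most like the 10 in pattern. Srf, Myocd, Cald1, Tpm1, Myl9, Krt5 and Krt14 were named in addition. So were Des, Rgs5 and Acta1, with fold changes of 0.70, −0.22 and 1.45 (adjusted p = 0.586, 0.776 and 0.667 by limma). The test of pairs was added after the data were seen. The model was tested on simulated data. Python 3.11.15, pandas 2.3.3, numpy 2.4.6, scipy 1.17.1 and matplotlib 3.10.9 were used. Alternatives were other normalizations, probe set rules, array sets, fits and left-out tumours.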

Additional observations from a re-analysis of the deposited data

Results flagged for a closer look

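In 20 groups of values (10 genes in 2 histologies), a sample was tested for standing far from the others of its histology, a check that flags about 1 in 20 groups by chance, and 2 samples did. Mylk in EMT 5, at 9.65, stood far above the other EMT tumours, of which the highest had 8.17. Oxtr in Squamous 9, at 4.33, stood far below the other Squamous tumours, of which the lowest had 4.95. Both samples are on TM arrays.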

How the results depend on the processing

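None of the 10 genes passed the adjusted threshold in any setting. Over all genes the count past it was 0, 14 without EMT 1 (leave-one-out 0 to 14) and 2 without both Squamous 1 and Squamous 2, a setting added after the data were seen. The median fold change of the 10 genes was −0.19, −0.97 on TM arrays alone (1 Squamous tumour, no test), −0.52 with array weights and −0.38 to −0.07 when one tumour at a time was left out. The sign turned for Acta2 (0.051), Actg2 (0.18) and Tagln (0.22) on numbered arrays alone and for Actg2 without the title format term (0.049). Leaving out one tumour gave −0.39 to 0.051 for Acta2, −0.38 to 0.22 for Actg2 and −0.39 to 0.22 for Tagln. Smtn ran from 0.69 without EMT 2 to 1.13 without EMT 1, Tpm2 from 0.44 without EMT 2 to 1.08 without EMT 3, Mylk from −0.65 without Squamous 1 to −0.29 without EMT 6, and Cnn1 from −0.60 without EMT 2 to −0.29 without EMT 6. With the mean of probe sets, 2 genes (Lmod1 and Tpm2) lay outside the Squamous range in the Microacinar tumour, against 1 in the main setting, and 2 in the Papillary tumour, against 3. Myh11 was then −0.58. Correlations with marker means past the threshold numbered 10, 4 in the 9 Squamous tumours alone and 0 without the 2 farthest tumours. The cause of these changes was not tested. Leaving out Squamous 9 gives the estimates of numbered arrays alone, because the title term then takes up EMT 5 and EMT 6. No paired analysis was possible because EMT and Squamous tumours share no number in the labels. Low signal over background limits Oxtr and Hey2, and Myh11 and Myocd in part.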
